A study of Mus musculus with 64 samples.

Results

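The Ikaros family of zinc-finger transcription factors was measured in 64 RNA-seq libraries of mouse CD4 T cells that have an active Foxp3 locus. Its members were taken by gene symbol, which gave Ikzf1 (Ikaros), Ikzf2 (Helios), Ikzf3 (Aiolos), Ikzf4 (Eos) and Ikzf5 (Pegasus), 5 of the 55809 genes in the count tables. All 5 were counted in every library, and all 5 averaged 10 counts or more in each set of libraries that was tested. The 4 members other than Ikzf5 were abundant and moved in different directions. Ikzf3 was the leading member in activated cells that lacked Foxp3, in those with restored Foxp3 and in activated Treg cells of the degron mice. Ikzf2 was the leading member in activated Treg cells of Foxp3GFP mice. Ikzf2 and Ikzf4 were higher in activated cells with Foxp3 restored for 28 days than in matched cells without it. The call for Ikzf4 did not hold in every fit. The Foxp3GFP and degron libraries differ in allele, treatment and counting rules, and the members were not tested between them.

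Ikaros family proteins bind DNA through an N-terminal group of C2H2 zinc fingers, of which finger 2 and finger 3 contact the core of the recognised motif, and they form homodimers and heterodimers with one another through the last pair of fingers at the C-terminus. They recruit chromatin remodelling and histone deacetylase complexes, among them NuRD, and can repress or activate their targets. Ikaros is required for lymphocyte development. Helios is expressed by most Treg cells of thymic origin and is needed for their stability. Eos is a partner of Foxp3 in gene silencing. Aiolos is found in B cells and in several effector and regulatory T cell populations, and Pegasus is a more distant relative. Foxp3 itself is the transcription factor that defines the Treg lineage.

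The libraries belonged to 28 groups from a pair of mouse systems. In the first, Foxp3 carried an auxin-inducible degron (Foxp3-AID), and mice with the F-box protein TIR1(F74G) at the ROSA26 locus (ROSA26-TIR1(F74G)) were compared with mice without it (ROSA26-WT). Every one of these mice, controls included, carried the degron allele and was labelled as given 5-ph-IAA for 7 days, the auxin analogue that lets TIR1 mark the tagged protein for degradation. TIR1 stood behind a STOP cassette that was removed by Cre from the Foxp3 locus, so it was made only in cells that express Foxp3. The groups were CD73-negative Treg cells of the thymus (3 TIR1 and 3 WT libraries), activated Treg cells of adult spleen and lymph nodes (3 and 3), and Treg cells of infant spleen and lymph nodes (4 and 4). The paper describes the adult mice as heterozygous females, which also have Treg cells of the intact allele, and the infants as hemizygous males. Sorted cells expressed the reporter of the degron allele. Adult and infant libraries thus differ in sex and genotype as well as in age. Ages in days are not given in the labels. For the infant RNA-seq the paper's text gives 7 days of degradation, as the label does, and a figure legend gives a longer course.

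In the other system the Foxp3 allele was interrupted by a removable Thy1.1-STOP cassette in front of a Foxp3-GFP reporter (Foxp3-LSL). Heterozygous females, which also have normal Treg cells from the intact allele, either carried a tamoxifen-inducible CD4-CreERT2 (called plusFoxp3) or did not (called minusFoxp3), and cells were sorted without treatment (day 0) or 3, 7, 14 or 28 days after a single dose of 4-hydroxytamoxifen. The minusFoxp3 cells are Treg "wannabe" cells, which transcribe the locus and make no Foxp3 protein, and the plusFoxp3 cells of day 3 to day 28 had regained Foxp3. At day 0 the plusFoxp3 animals had the Cre but no restored Foxp3. Resting and activated cells were sorted apart, with 2 libraries in each of the 20 groups. Untreated Treg cells with a Foxp3-GFP reporter (Foxp3GFP) gave 2 resting and 2 activated libraries, and they differ from the other cells in allele as well as in treatment. The methods describe the libraries of a group as biological replicates. Where nothing says that they came from separate animals, the p-values measure only the spread between these libraries.

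The coding sequences show how alike the members are in the fingers that carry their shared functions, and how far reads can tell them apart. A search of the GRCm39 coding sequences for the spacing of cysteine and histidine codons of a C2H2 finger found 6 fingers in each of Ikzf1 to Ikzf4, whose proteins have 515, 526, 507 and 586 codons, and 5 fingers in Ikzf5, which has 419. Finger 2 is shown for Ikzf1 to Ikzf4 because it is a DNA-contacting finger. In human Ikaros and Aiolos it also holds the surface that thalidomide analogues present to the cereblon ubiquitin ligase. It is written 5′ to 3′ on the coding strand, from the first cysteine codon to the last histidine codon, with the zinc-binding cysteine and histidine codons in capitals.
Ikzf1 finger 2, chr11:11704024-11704086 (+): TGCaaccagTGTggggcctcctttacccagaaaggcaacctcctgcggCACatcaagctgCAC
Ikzf2 finger 2, chr1:69609740-69609802 (−): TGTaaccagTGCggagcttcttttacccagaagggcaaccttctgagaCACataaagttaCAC
Ikzf3 finger 2, chr11:98379766-98379828 (−): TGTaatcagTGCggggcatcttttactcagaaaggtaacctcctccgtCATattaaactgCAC
Ikzf4 finger 2, chr10:128476098-128476160 (−): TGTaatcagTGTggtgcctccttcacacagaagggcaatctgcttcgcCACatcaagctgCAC
Over these 63 bases, any pair of the 4 genes was 76.2% to 84.1% identical, and all 4 copies lie in exon 5 of their transcript. The longest stretch of coding sequence shared by any pair of members was 26 bases, between Ikzf1 and Ikzf3, which is shorter than a read.

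The genes lie apart in the GRCm39 build. Ikzf1 spans chr11:11634980-11722926 on the plus strand, Ikzf2 chr1:69570373-69726404, Ikzf3 chr11:98355728-98436857, Ikzf4 chr10:128466712-128505227 and Ikzf5 chr7:130990381-131012250, the last 4 on the minus strand. Reads were counted without regard to strand, and 81.3% of the exon bases of Ikzf5 also belong to Pstk on the opposite strand, a gene with a mean count of 1485. Reads from that stretch cannot be given to either gene, so the level of Ikzf5 is uncertain. The overlaps of Ikzf2 with Gm29114 (1.24% of its exon bases) and of Ikzf4 with Gm26876 (0.573%) are small.

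Totals of counted read pairs ran from 27753211 to 34029692 in the adult degron libraries, from 33704114 to 55801009 in the infant libraries and from 35097257 to 57419138 in the other 44. The 20 degron libraries were counted with a minimum mapping quality of 30 and the other 44 without one, so levels are compared only within each set. In all 12 adult degron tables the library name in the header belongs to the other genotype than the sample to which the table is attached, and the header names were used here. In the infants the titles and the genotype field name opposite genotypes, and the groups are called titled TIR1 and titled WT. A swap would turn the sign of each TIR1 comparison and leave its size. In the adults it would also exchange the libraries that enter the thymic against activated WT comparison. With the recorded attachment edgeR called 2969 instead of 3404 of all genes there, and no member call changed. The degron acts on the protein, so Foxp3 RNA is no direct check of those labels. By header name, Foxp3 was 76.7 to 93.4 CPM in activated TIR1 and 99.95 to 127 in activated WT libraries (log2 fold change −0.42 ± 0.16, adjusted p = 1.00 in edgeR), and overlapped between genotypes in the thymus and the infants. Summed Treg markers (Foxp3, Il2ra, Ctla4, Tnfrsf18) were lower by header name in the TIR1 libraries, without overlap, at 1699 to 1886 CPM against 2022 to 2279 in the thymus and 1553 to 1778 against 1886 to 2121 in activated cells, and overlapped in the infants (1429 to 1494 against 1189 to 1630). These values were not used to assign libraries to groups. In the reversible-allele libraries Foxp3 was 44.3 to 81.5 CPM (read pairs counted for a gene, scaled to an equal total for every library) in minusFoxp3 cells, 50.7 to 80.7 in plusFoxp3 cells at day 0 and 426 to 615 in plusFoxp3 cells from day 3 on, as the labels say. Summed CD4 T cell markers were 3635 to 10704 CPM, and all 4 Treg markers were detected in every group. CD8 T cell markers summed to at most 63.4 CPM, myeloid markers to 41.7, NK cell markers to 16.9 and plasma cell markers to 48.9. Of the B cell markers, Ighm ran from 126 to 3902 CPM, and Ms4a1, Cd79a, Cd79b and Pax5 together from 9.63 to 57.8 CPM, with Ms4a1 at no more than 1.84 CPM and Pax5 at no more than 1.16. Of the 4 activation markers, Klrg1 was at 0 in the thymic groups.

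Compared per kilobase of exon, which allows levels of different genes to be set side by side, the leading member of the family differed between kinds of cells. In thymic WT Treg cells Ikzf2 made up 38.2% ± 1.46 (SD, n = 3) of the summed CPM per kilobase of the 5 members and Ikzf4 35.6% ± 0.814, with Ikzf1 at 16.4% ± 1.46 and Ikzf3 at 9.54% ± 0.366. In activated WT Treg cells of adult spleen and lymph nodes Ikzf3 led with 54.6% ± 12.0 (SD, n = 3), and Ikzf2 had 17.7% ± 9.35. In infant Treg cells Ikzf1 led, with 36.5% ± 3.49 in the titled TIR1 and 35.2% ± 3.79 in the titled WT libraries (SD, n = 4). Resting minusFoxp3 cells at day 0 had no dominant member, with Ikzf4 at 30.8% ± 3.48, Ikzf1 at 26.5% ± 1.17, Ikzf2 at 24.5% ± 2.87 and Ikzf3 at 17.3% ± 0.985 (SD, n = 2). Activated minusFoxp3 cells at day 0 had 75.2% ± 3.47 Ikzf3, 4.87% ± 0.979 Ikzf2 and 6.26% ± 0.502 Ikzf4. Ikzf2 led in GFP Treg cells, with 38.1% ± 0.0831 in the resting and 45.7% ± 3.13 in the activated libraries, and Ikzf3 had 24.1% ± 3.98 of the activated ones (SD, n = 2). Ikzf5 stayed under 1 CPM per kilobase in every group mean.

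**Figure D1:**
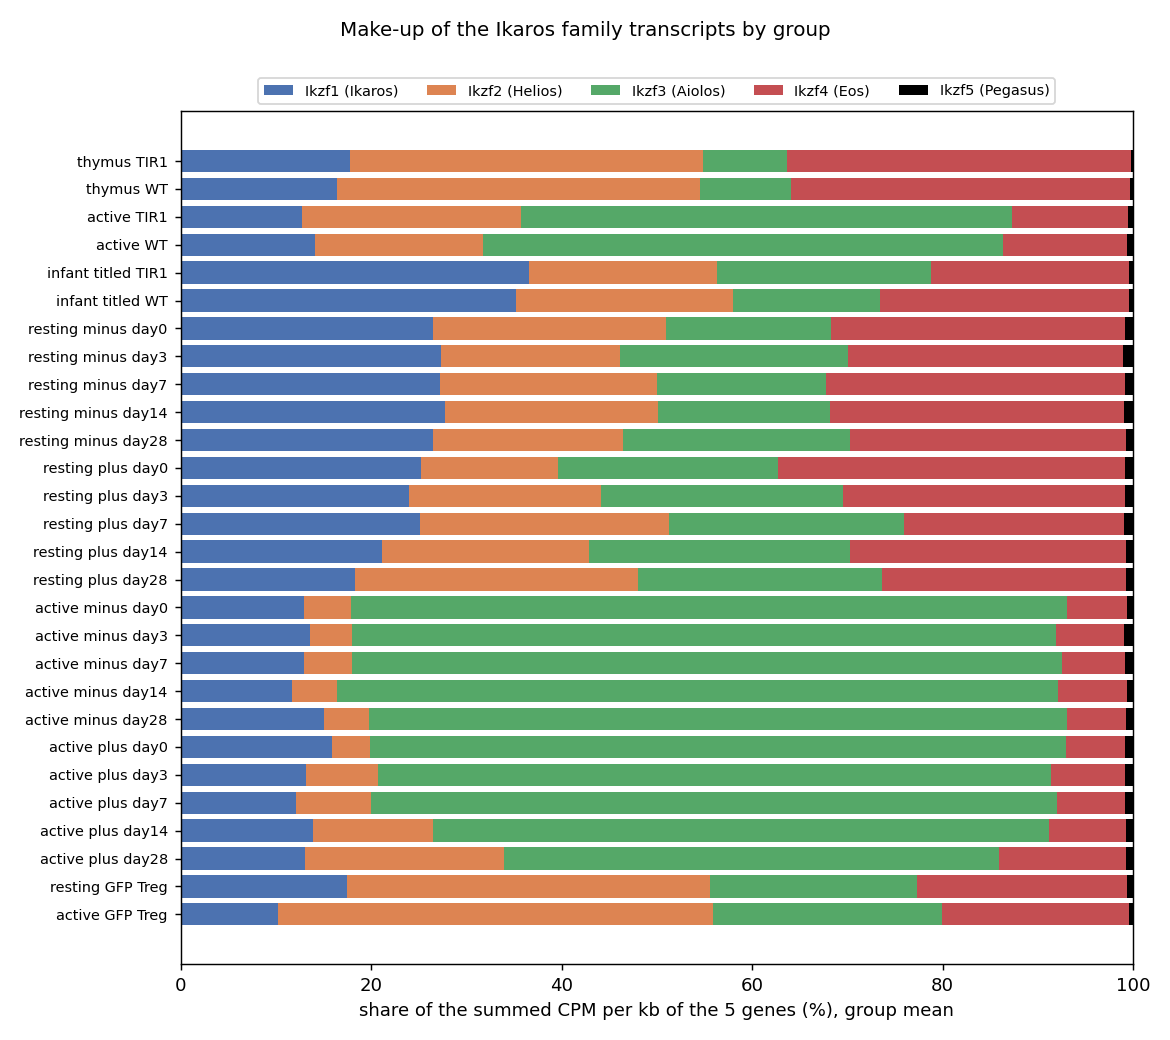
Stacked bars of the share (percent) of each Ikaros family member in the summed CPM per kilobase of exon, as the mean of the libraries of each of the 28 groups. Ikzf3 fills 75.2% of the bar of activated minusFoxp3 cells at day 0 and 24.1% of that of activated GFP Treg cells, in which Ikzf2 has 45.7%.

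The activation state of cells without Foxp3 separated 4 of the 5 members. Activated minusFoxp3 cells at day 0 had less Ikzf2, Ikzf4 and Ikzf1 and more Ikzf3 than resting ones. In CPM, Ikzf2 was 51.1 and 46.4 in the activated libraries and 249 and 196 in the resting ones. Ikzf4 was 30.2 and 40.9 in the activated libraries and 148 and 162 in the resting ones. Ikzf3, which is the member most linked to effector differentiation, went the other way, with 504 and 651 in the activated libraries and 118 and 118 in the resting ones. No library of one state overlapped with the other for these members. In the edgeR fit over all 44 libraries Ikzf2 was 4.56-fold lower (log2 fold change −2.19 ± 0.35 SE, adjusted p = 4.8e-05), Ikzf4 4.36-fold lower (−2.12 ± 0.26, adjusted p = 1.43e-06), Ikzf1 1.85-fold lower (−0.89 ± 0.17, adjusted p = 0.000625) and Ikzf3 4.88-fold higher (2.29 ± 0.26, adjusted p = 4.2e-07). In that comparison 13.4% of all genes tested were called, against 4 of the 5 members. The 4 activation markers (Cd44, Icos, Klrg1, Itgae) summed to 194 to 311 CPM in the resting and 915 to 1284 CPM in the activated libraries.

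The same 4 members differed between the thymic and the activated Treg cells of the degron controls, with the thymic cells on the side of the resting wannabe cells for each. Ikzf2 was 512 to 640 CPM in the 3 thymic WT libraries and 121 to 287 in the 3 activated WT libraries, 2.95-fold higher in the thymus (1.56 ± 0.31, adjusted p = 0.00332). Ikzf4 was 282 to 315 CPM against 54.8 to 93.0, which is 3.73-fold higher (1.90 ± 0.19, adjusted p = 1.78e-05). Ikzf1 was 185 to 198 CPM against 104 to 124, a 1.58-fold difference (0.66 ± 0.11, adjusted p = 0.00105). Aiolos was the exception again, with Ikzf3 at 95.3 to 118 CPM in the thymus and 313 to 506 in the activated cells, 4.20-fold lower in the thymus (−2.07 ± 0.19, adjusted p = 6.77e-06). The adult libraries did not overlap between the populations for any of these 4 genes, and 23.0% of all genes tested were called in this comparison. The tissue and the activation state differ together here and cannot be told apart.

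In GFP Treg cells the state difference of the family was small by comparison. Ikzf2 was 653 and 608 CPM in the activated and 396 and 407 in the resting libraries, a log2 difference of 0.63 ± 0.33 (adjusted p = 0.392 in edgeR). Ikzf3 was 219 and 283 CPM in the activated and 161 and 186 in the resting libraries (0.51 ± 0.25, adjusted p = 0.332). Ikzf1 was 98.1 and 124 CPM in the activated and 135 and 156 in the resting libraries (−0.41 ± 0.17, adjusted p = 0.243). None of these 3 genes overlapped between the states, and the order of Ikzf2 was the opposite of that in minusFoxp3 cells. Of the 5 members 0 were called by edgeR, beside 3.12% of all genes, and 0 by DESeq2, beside 1172 genes. At an unadjusted p under 0.05 there were 2, Ikzf1 (0.0259 in edgeR) and Ikzf3 (0.0476 in edgeR), beside 14.6% of all genes. The difference between the state effect in GFP Treg cells and that in minusFoxp3 cells was not itself tested.

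Restoration of Foxp3 in activated cells was followed by higher Helios RNA. The CPM of Ikzf2 in the activated minusFoxp3 libraries was 37.2 and 44.6 at day 3, 47.7 and 48.2 at day 7, 61.6 and 36.2 at day 14 and 35.2 and 56.1 at day 28. In the activated plusFoxp3 libraries it was 29.5 and 43.1 at day 0, 95.7 and 52.2 at day 3, 77.8 and 88.5 at day 7, 120.7 and 158 at day 14 and 173 and 299 at day 28. From day 3 on, both plusFoxp3 libraries lay above both minusFoxp3 libraries of the same day. Ikzf2 was 1.87-fold higher at day 3 (log2 fold change 0.90 ± 0.31, adjusted p = 0.445) and 1.78-fold higher at day 7 (0.83 ± 0.31, adjusted p = 0.287), which did not pass. It was 2.86-fold higher at day 14 (1.52 ± 0.31, adjusted p = 0.0335) and 5.23-fold higher at day 28 (2.39 ± 0.32, adjusted p = 0.000529), which did. The day 14 call did not hold when any 1 of its 4 libraries was left out (log2 fold change 1.19 to 1.94, adjusted p 0.0613 to 0.275 in edgeR), and the day 28 call held in each such fit. Leaving out a library of a pair leaves 1 in that group, which is then assumed to vary like the other groups of the fit. At day 28 Ikzf2 was 20.8% ± 4.19 (SD, n = 2) of the family per kilobase, against 3.95% ± 1.04 in the activated plusFoxp3 cells at day 0.

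Eos was the other member that rose. Ikzf4 was 61.5 and 106 CPM in the activated plusFoxp3 libraries at day 28 and 29.0 and 36.8 in the matched minusFoxp3 libraries, 2.56-fold higher (1.36 ± 0.24, adjusted p = 0.00566). At day 14 it was 41.8 and 58.1 CPM against 40.3 and 43.5, with overlapping groups. The Ikzf4 call at day 28 did not hold without minusFoxp3 replicate 1 (1.20, adjusted p = 0.130), without plusFoxp3 replicate 2 (0.93, adjusted p = 0.111) or in a fit of these 4 libraries alone (1.35, adjusted p = 0.102). Both libraries of plusFoxp3 at day 28 were nevertheless above every activated minusFoxp3 library, none of which exceeded 43.5 CPM.

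Aiolos and Ikaros were not called at any day in activated cells. Ikzf3 was 411 and 452 CPM in activated plusFoxp3 cells at day 28 and 517 and 536 in the matched minusFoxp3 cells, which did not overlap but did not pass the test (adjusted p = 0.669 in edgeR). With Ikzf2 and Ikzf4 higher, the share of Ikzf3 in the family was 52.1% ± 5.93 at day 28, against 73.1% ± 0.325 at day 0 (SD, n = 2). Ikzf1 was 103 and 124 CPM in plusFoxp3 and 93.1 and 134 in minusFoxp3 cells at day 28, so that the minusFoxp3 libraries enclosed the plusFoxp3 ones.

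For each day in activated cells the members called are set beside all genes. The edgeR fit called 0 members at day 0 with 0.00481% of all genes, 0 at day 3 with 0.274%, 0 at day 7 with 0.568%, 1 at day 14 with 0.732% and 2 at day 28 with 1.85%. At an unadjusted p under 0.05 the members were 0 at day 0, 1 at day 3, 1 at day 7, 1 at day 14 and 2 at day 28, beside 4.58%, 7.4%, 13.0%, 10.2% and 11% of all genes. DESeq2 called 0 members at day 0, day 3 and day 7, 1 at day 14 and 2 at day 28, beside 17, 264, 482, 518 and 793 genes. Other transcripts moved with these values. Ighm, the heavy chain gene of IgM in B cells, was 219 to 387 CPM in activated minusFoxp3 cells, 1564 and 2331 in activated plusFoxp3 cells at day 28 and 3754 and 3902 in activated GFP Treg cells. The B cell markers Ms4a1, Cd79a, Cd79b and Pax5 summed to 9.63 to 26.2 CPM in the same minusFoxp3 libraries, 23.9 to 37.5 in plusFoxp3 cells at day 28 and 39.5 to 47.3 in GFP Treg cells. That sum thus also lay highest in the GFP Treg libraries, which had the most Ikzf2, and overlapped between the other 2 sets. Within that sum Pax5 did not follow this order. It was 0.134 to 0.683 CPM in the minusFoxp3 libraries, 0.665 to 1.16 in plusFoxp3 cells at day 28 and 0.208 to 0.323 in GFP Treg cells. Ms4a1 was at most 1.43 CPM and overlapped between all of these sets. The 4 activation markers summed to 867 to 1393 CPM in activated minusFoxp3 cells, 1869 to 2124 in plusFoxp3 cells at day 14 and 1679 to 1876 at day 28. Their part in the family's values was not tested. In bulk libraries a larger share of cells with a transcript and more of it per cell cannot be told apart.

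**Figure D2:**
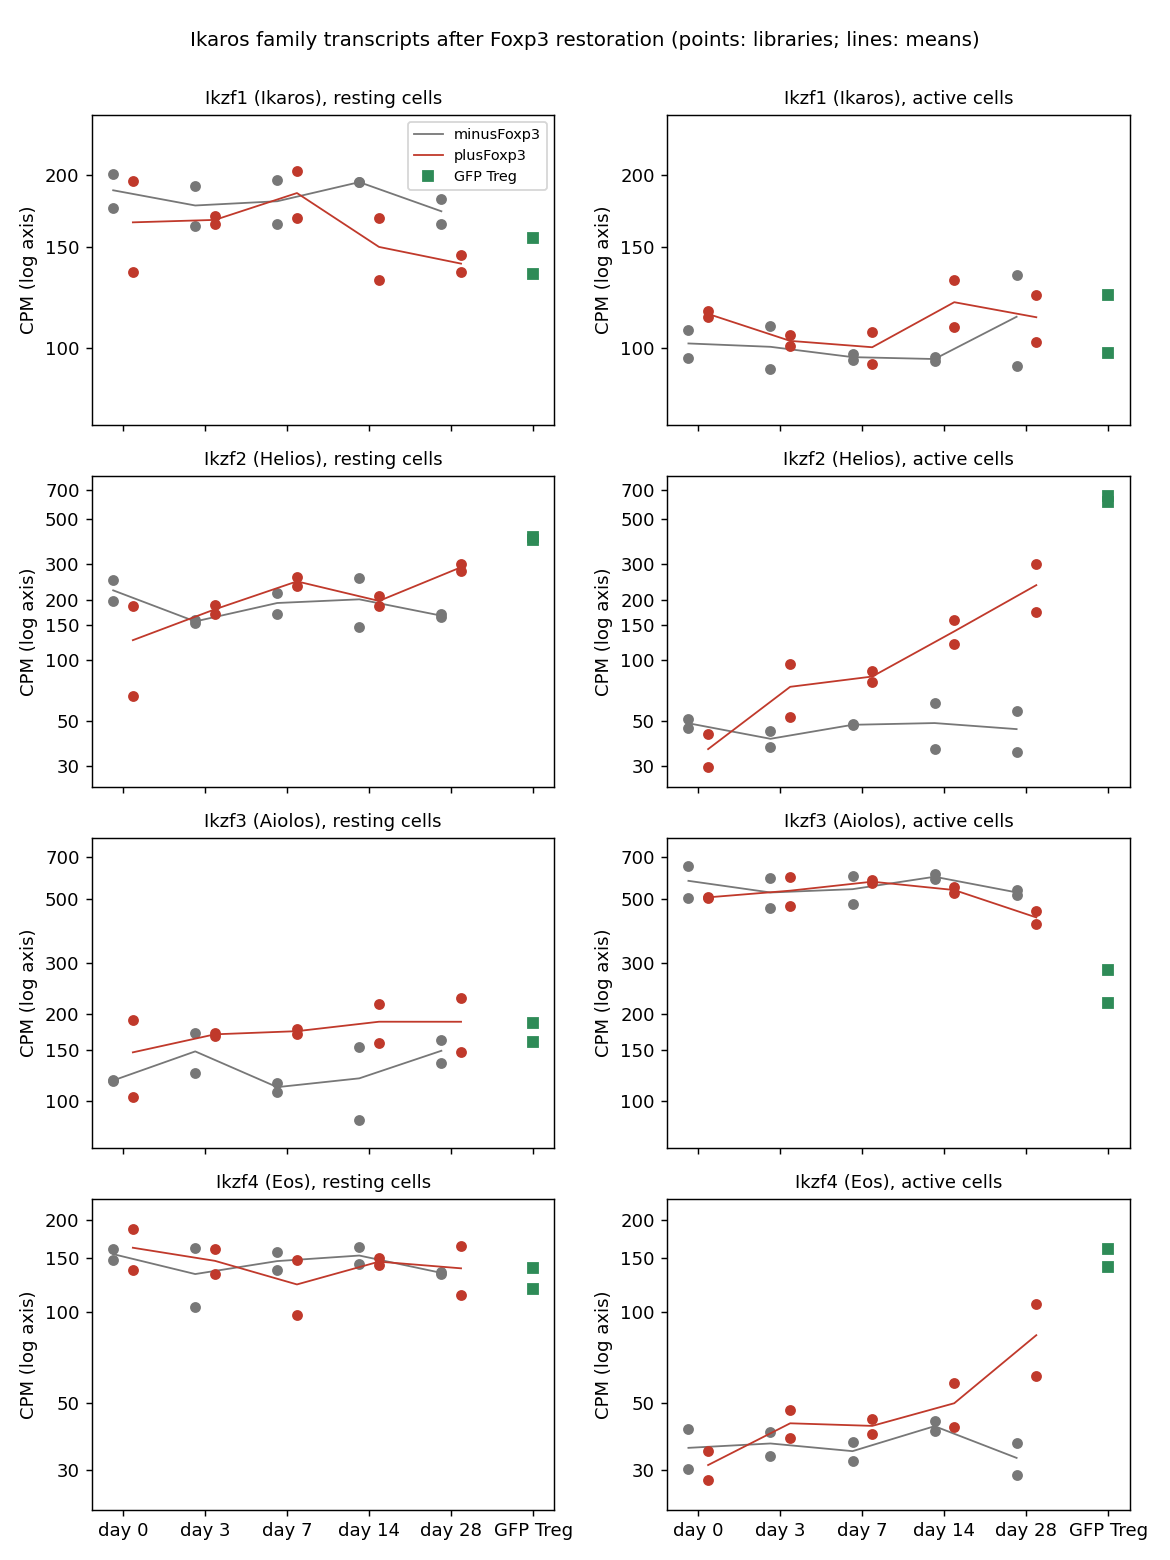
Levels of Ikzf1 to Ikzf4 (CPM, log axis) in resting and activated cells by day after 4-hydroxytamoxifen, with GFP Treg cells at the right and days evenly spaced. Points are libraries and lines join group means. In activated cells Ikzf2 reached 173 and 299 CPM in plusFoxp3 cells at day 28, with minusFoxp3 cells at 35.2 and 56.1 and GFP Treg cells at 653 and 608.

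In resting cells, restoration of Foxp3 was not followed by a called difference in any member. Ikzf2 was 278 and 300.4 CPM in resting plusFoxp3 cells at day 28 and 163 and 170 in the matched minusFoxp3 cells, which did not overlap, but the 1.76-fold difference did not pass (0.81 ± 0.33, adjusted p = 0.421). The minusFoxp3 libraries of other days reached 255 CPM. Ikzf3 was 171 and 178 CPM in plusFoxp3 and 116 and 108 in minusFoxp3 cells at day 7 (0.63 ± 0.29, adjusted p = 0.865), and 217 and 159 against 86.1 and 154 at day 14 (0.68 ± 0.29, adjusted p = 0.499). Ikzf4 ranged from 97.5 to 188 CPM and Ikzf1 from 132 to 203 CPM in the resting plusFoxp3 libraries of all days. Ikzf4 overlapped with the matched minusFoxp3 cells at every day. Ikzf1 lay below them at day 14 (132 and 169 against 194 and 194 CPM) and day 28 (136 and 145 against 164 and 182) and overlapped at the others. The edgeR fit called 0 of the 5 members at day 0, day 3, day 7, day 14 and day 28, with 0.00487%, 0.0487%, 0.0585%, 0.268% and 0.945% of all genes called in turn. At an unadjusted p under 0.05 these comparisons had 1, 0, 1, 1 and 1 members, beside 10.8%, 11%, 5.71%, 8.87% and 8.9% of all genes. DESeq2 called 0 members in each, beside 45, 220, 147, 294 and 463 genes.

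Replicates of Ikzf2 lay far apart in resting plusFoxp3 cells at day 0 and in resting minusFoxp3 cells at day 14 (147 and 255 CPM). At day 0, before any Foxp3 was restored, Ikzf2 was 66.8 and 185 CPM in the plusFoxp3 libraries and 249 and 196 in the minusFoxp3 libraries (−0.83 ± 0.33, adjusted p = 0.428). Without plusFoxp3 replicate 2 the difference was −1.76, and without replicate 1 it was −0.27. The first of these fits has the lower library alone in its group, so its adjusted p of 0.000679 in edgeR rests on the spread of the other groups and not on that of this group. The low library, plusFoxp3 replicate 1, also had the lowest summed Treg markers (692 CPM) and the lowest summed activation markers (131 CPM) of all 64 libraries.

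The growth of the Foxp3 effect with time and its dependence on state were tested directly. In activated cells the effect on Ikzf2 was 1.48 ± 0.44 (log2) larger at day 28 than at day 3 (adjusted p = 0.316), and that on Ikzf4 1.08 ± 0.34 larger (adjusted p = 0.364). By edgeR 0 members were called, beside 0.0915% of all genes, 2 had an unadjusted p under 0.05, beside 6.66%, and DESeq2 called 0, beside 227 genes. In resting cells Ikzf2 differed by 0.54 ± 0.46 between those days (adjusted p = 0.742). There 0 members and 0.0% of all genes were called by edgeR, with 0 members and 1556 genes at an unadjusted p under 0.05 and 0 members and 44 genes by DESeq2. Between the states at day 28, the Foxp3 effect on Ikzf2 was 1.57 ± 0.47 larger in activated than in resting cells (adjusted p = 0.398) and that on Ikzf4 1.28 ± 0.36 larger (adjusted p = 0.341). That comparison called 0 members by edgeR, beside 0.0818% of all genes, had 2 at an unadjusted p under 0.05, beside 5.58%, and 0 by DESeq2, beside 67 genes. Time and treatment alone, in minusFoxp3 cells at day 28 against day 0, gave 0 called members and 0.0% of genes in resting cells and likewise 0 and 0.0% in activated cells by edgeR. No member had an unadjusted p under 0.05 in either, against 752 and 549 genes, and DESeq2 called 0 members in both and 6 and 0 genes.

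**Figure D3:**
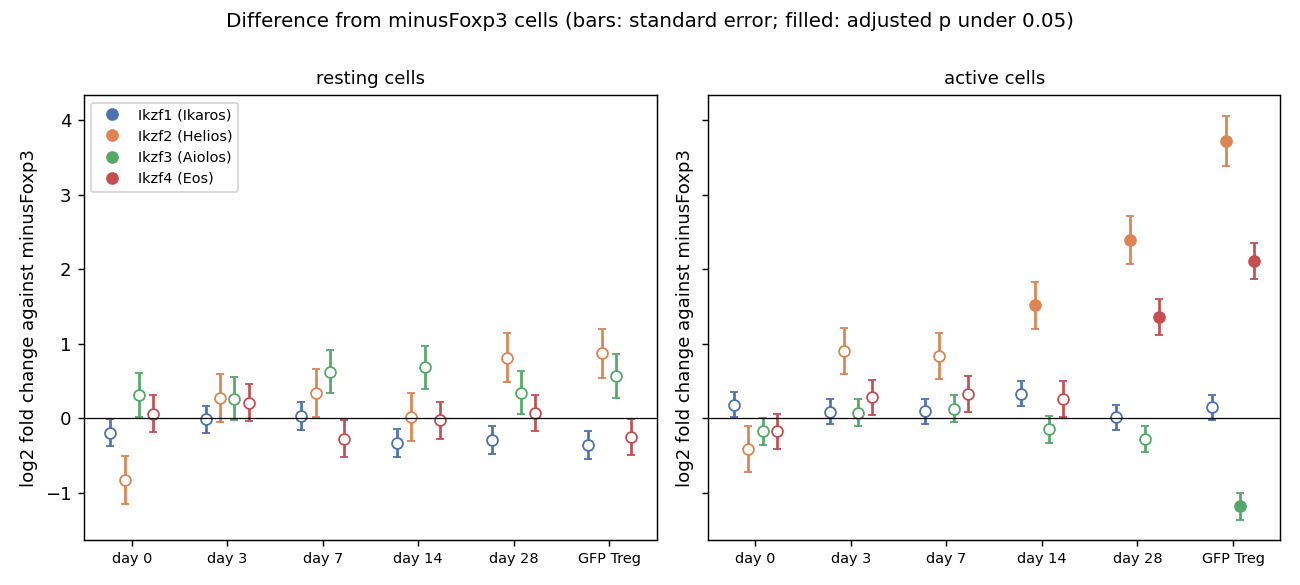
Log2 fold changes with standard errors from edgeR for each member, plusFoxp3 against minusFoxp3 cells of the same day and state, and GFP Treg cells against minusFoxp3 cells of day 0. Filled points have an adjusted p under 0.05: in activated cells Ikzf2 at day 14 (1.52) and day 28 (2.39) and Ikzf4 at day 28 (1.36), and Ikzf2, Ikzf3 and Ikzf4 in GFP Treg cells.

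GFP Treg cells, which have a Foxp3-GFP allele without the STOP cassette, were set against minusFoxp3 cells of day 0. These cells differ in allele as well as in Foxp3, and the part of each cannot be told apart. Against activated minusFoxp3 cells of day 0, Ikzf2 was 13.2-fold higher (3.72 ± 0.34, adjusted p = 1.66e-06). Ikzf4, with 140 and 161 CPM, was 4.31-fold higher (2.11 ± 0.25, adjusted p = 2.26e-05), and Ikzf3 was 2.26-fold lower (−1.18 ± 0.18, adjusted p = 0.000347). These 3 of the 5 members were called by edgeR and by DESeq2, beside 10% of all genes, and held when each library was left out in turn. Ikzf1 (98.1 and 124 CPM) overlapped with minusFoxp3 cells. In resting GFP Treg cells Ikzf2 was 1.83-fold higher than in resting minusFoxp3 cells of day 0 (0.87 ± 0.33, adjusted p = 0.235) and Ikzf3 was 161 and 186 CPM against 118 and 118 (0.57 ± 0.29, adjusted p = 0.469). There 0 members were called by edgeR, beside 2.91% of all genes, and 0 by DESeq2, beside 1036 genes, with 1 at an unadjusted p under 0.05, beside 12.5%.

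Cells with 28 days of restored Foxp3 were then set against GFP Treg cells. In activated cells Ikzf2 was still 2.68-fold higher in GFP Treg cells (1.42 ± 0.31, adjusted p = 0.0226) and Ikzf3 1.72-fold lower (−0.78 ± 0.18, adjusted p = 0.0320), with no overlap for either gene. Ikzf4 was 0.85 ± 0.24 higher on the log2 scale (adjusted p = 0.0943). Here 2 members and 2.01% of all genes were called by edgeR, and 3 members and 819 genes by DESeq2. Both edgeR calls depended on single libraries. Ikzf2 was not called without plusFoxp3 replicate 1 (1.09, adjusted p = 0.342), GFP Treg replicate 1 (1.35, adjusted p = 0.180) or GFP Treg replicate 2 (1.48, adjusted p = 0.0686). Ikzf3 was not called without plusFoxp3 replicate 1, plusFoxp3 replicate 2 or GFP Treg replicate 1 (adjusted p 0.122 to 0.345). Without plusFoxp3 replicate 2, Ikzf4 was called (1.28, adjusted p = 0.0148). In a fit of these 4 libraries alone 0 members were called. In resting cells, where the restored libraries had 278 and 300.4 CPM of Ikzf2 and the GFP Treg libraries 396 and 407, 0 members were called by edgeR, beside 0.0341% of all genes, and 0 by DESeq2, beside 58 genes, and 0 had an unadjusted p under 0.05, beside 3.96%.

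Ordered by mean CPM over the 22 reversible-allele and GFP Treg groups, Ikzf2 was highest in activated GFP Treg cells, then in resting GFP Treg cells, resting plusFoxp3 cells of day 28 and those of day 7, and no neighbouring pair of these 4 groups overlapped. From there down to day 28 of resting minusFoxp3 cells neighbouring groups overlapped. The 6 lowest groups, all activated cells without restored Foxp3, lay between 29.5 and 61.6 CPM and overlapped with their neighbours. For Ikzf3 the 9 highest groups were all activated wannabe or restored cells, overlapping from one to the next. Activated plusFoxp3 cells of day 28 and then activated GFP Treg cells followed, each apart from the groups above. All 11 resting groups came last, of which plusFoxp3 cells of day 28 reached 228 CPM, above the lower GFP Treg library (219 CPM). For Ikzf4 the 11 resting groups and activated GFP Treg cells came first and each overlapped with the next in the order, and activated plusFoxp3 cells of day 28 followed, overlapping with the group above but not with any activated group below them. For Ikzf1 the means of all 11 resting groups (140.3 to 194 CPM) exceeded those of all 11 activated groups (95.9 to 120.3 CPM).

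Between mice with TIR1, in which 5-ph-IAA lets Foxp3 protein be degraded, and mice without it, no member was called in adult Treg cells. In the thymus Ikzf2 was 525, 466 and 608 CPM in the TIR1 libraries and 640, 512 and 553 in the WT libraries (log2 fold change −0.10 ± 0.11). Ikzf4 was 357, 257 and 256 CPM in TIR1 and 315, 282 and 284 in WT (−0.02 ± 0.13), Ikzf3 was 104, 97.5 and 87.3 against 118, 95.3 and 108 (−0.15 ± 0.12), and Ikzf1 was 188, 210 and 201 against 185, 187 and 198 (0.07 ± 0.08). The groups overlapped for all 4 genes, and edgeR's adjusted p was 0.864 to 0.994. No member was called by edgeR or DESeq2 and none had an unadjusted p under 0.05. Among all genes 0.0% were called by edgeR, 1050 had an unadjusted p under 0.05 and DESeq2 called 156.

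In activated adult Treg cells the replicates of Ikzf2 and Ikzf3 varied more than the genotypes. Ikzf2 was 154, 298 and 259 CPM in the TIR1 libraries and 287, 131 and 121 in the WT libraries (0.36 ± 0.36). Ikzf3 was 501, 339 and 376 CPM against 313, 448 and 506 (−0.09 ± 0.21). In both genotypes the library with the lowest Ikzf2 had Ikzf3 at 501 or 506 CPM, the highest of its group. Ikzf4 was 65.8, 71.4 and 74.6 CPM against 93.0, 73.3 and 54.8 (−0.10 ± 0.22), and Ikzf1 was 106, 117 and 89.0 against 104, 111 and 124 (−0.15 ± 0.16). The adjusted p of each was 1.00 in edgeR. No member was called by edgeR or DESeq2 or had an unadjusted p under 0.05, and of all genes 0.0% were called by edgeR, 672 had an unadjusted p under 0.05 and DESeq2 called 21. The difference of the TIR1 effects between thymic and activated cells was called for 0 members and 0.0% of genes by edgeR, with 0 members and 984 genes at an unadjusted p under 0.05 and 0 members and 71 genes by DESeq2.

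In infant Treg cells Aiolos and Eos came closest to a difference. Ikzf3 was 235, 188, 214 and 252 CPM in the titled TIR1 libraries and 150, 129, 126 and 225 in the titled WT libraries, 1.43-fold higher (0.52 ± 0.18, unadjusted p = 0.0151 and adjusted p = 0.175 in edgeR). Ikzf4 was 182, 147, 144 and 139 CPM in titled TIR1 and 202, 222, 214 and 149 in titled WT (−0.35 ± 0.13, unadjusted p = 0.0197 and adjusted p = 0.194 in edgeR). In both genes the overlap came from titled WT replicate 4, which lay with the titled TIR1 libraries. Ikzf2 was 309, 336, 198 and 208 CPM against 362, 308, 335 and 232 (−0.22 ± 0.19, adjusted p = 0.602), and Ikzf1 was 366, 353, 396 and 391 against 360, 356, 346 and 436 (0.03 ± 0.08, adjusted p = 0.907). Neither of these moved beyond the spread of its libraries. By edgeR 0 members were called, beside 0.0185% of all genes, and 2 had an unadjusted p under 0.05, beside 17.4% of all genes. DESeq2 called 1 member, Ikzf3 (adjusted p = 0.0416), beside 1108 genes. Without titled WT replicate 4 edgeR called 2 members, Ikzf3 (0.74, adjusted p = 0.000856) and Ikzf4 (−0.46, adjusted p = 0.00842). That library also had a summed activation marker level of 520 CPM, against 183 to 237 in the other titled WT libraries and 482 to 672 in the titled TIR1 libraries. The part of activation in the Ikzf3 and Ikzf4 values was not tested.

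**Figure D4:**
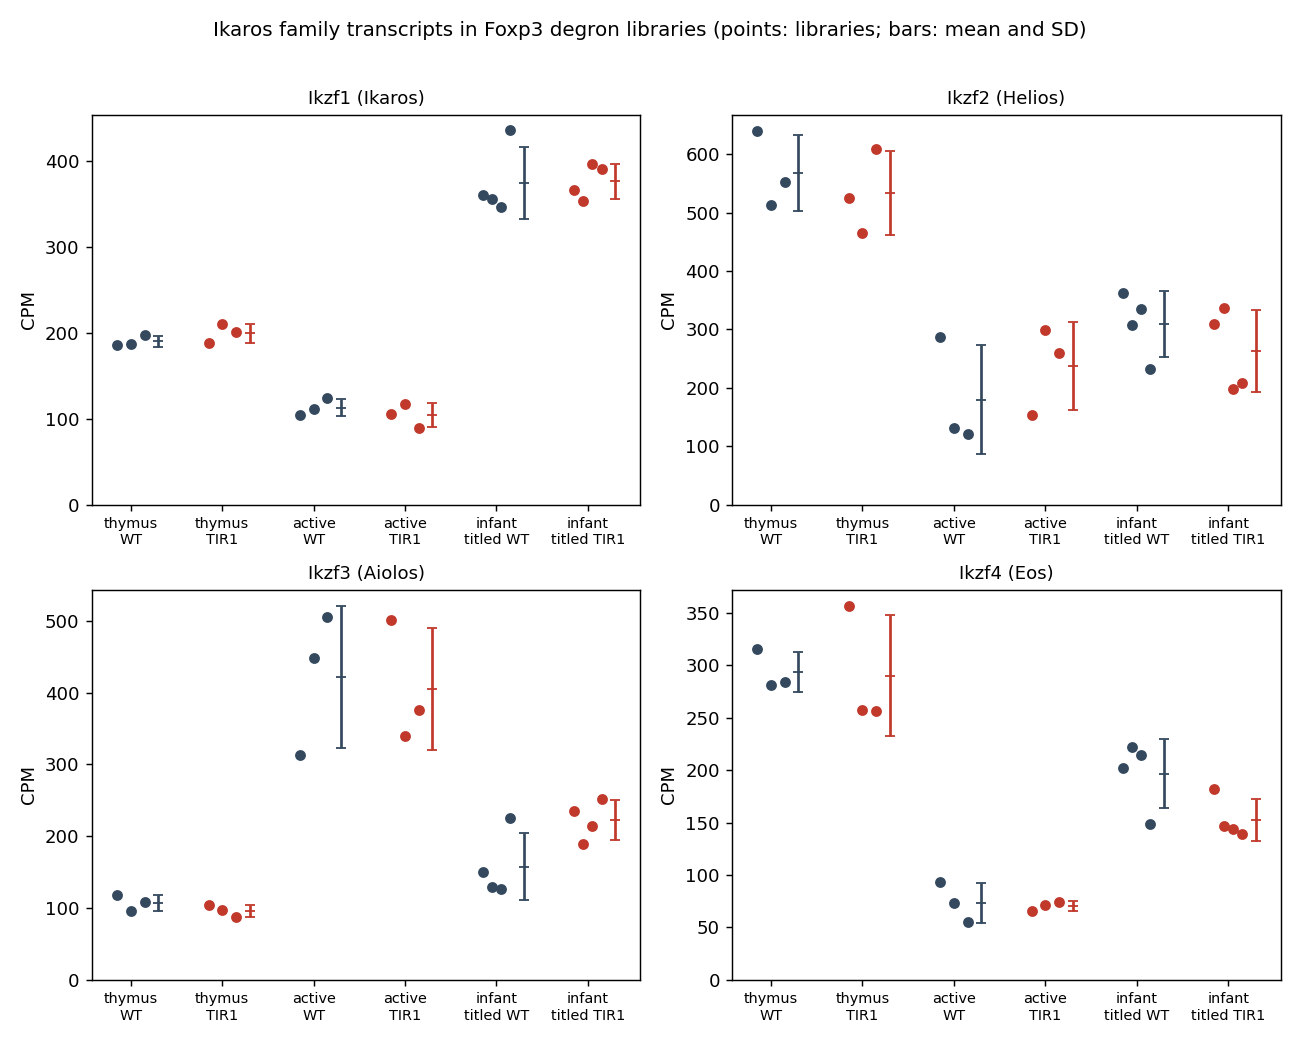
Levels of Ikzf1 to Ikzf4 (CPM, linear axis from 0) in the 20 degron libraries, with points for libraries and bars for the mean ± SD of each group. Groups overlap between TIR1 and WT in thymic and activated cells, and in the infants the titled WT library with 225 CPM of Ikzf3 lies among the titled TIR1 libraries at 188 to 252 CPM.

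Genes that work with the family were counted from 4 lists, which are described by counts and medians without a test of the list. The list of NuRD subunits and other corepressors had 18 genes, all tested. In thymic against activated WT cells 7 of them were higher and 2 lower, beside 23.0% of all genes called. The median log2 fold change of the list was 0.10 against −0.03 over all genes. The higher ones included Gatad2b (1.10 ± 0.19, adjusted p = 0.00131) and the helicase gene Chd3 (1.08 ± 0.18, adjusted p = 0.000726), and the lower ones were Gatad2a (−0.90 ± 0.23, adjusted p = 0.0149) and Mbd2 (−0.72 ± 0.12, adjusted p = 0.000681). In activated against resting minusFoxp3 cells Gatad2a was higher (0.63 ± 0.21, adjusted p = 0.0418) and the helicase gene Chd4 lower (−0.70 ± 0.15, adjusted p = 0.00209), 1 of 18 in each direction. Of all genes 13.4% were called there. Over the 26 comparisons the list had 8 higher and 3 lower edgeR calls among 468 values, and those of the thymic and the minusFoxp3 comparison account for them. At an unadjusted p under 0.05 there were 45 values, and DESeq2 called 14. Of all genes, 2.64% to 34.4% had an unadjusted p under 0.05, depending on the comparison, and DESeq2 called 0 to 4226. The cereblon ubiquitin ligase, which degrades Ikaros and Aiolos in human cells given thalidomide analogues, gave a list of 5 genes. It had 0 edgeR calls among 130 values, with 7 at an unadjusted p under 0.05, beside the same shares of all genes. DESeq2 called 1, in thymic against activated WT cells, beside 4226 genes.

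Transcription factors that act beside Foxp3 were a list of 14, all tested. In thymic against activated WT cells 9 were higher and 3 lower (median 0.56), beside 23.0% of all genes called. The higher ones included Satb1, a chromatin organiser of thymocytes (3.21 ± 0.15, adjusted p = 6.08e-08). The lower ones included Irf4, which drives effector Treg cells (−3.15 ± 0.50, adjusted p = 0.000599). In activated against resting minusFoxp3 cells 4 were higher and 5 lower (median −0.26), beside 13.4% of all genes called. Irf4 was at 2.07 ± 0.26 (adjusted p = 1.97e-06) and Lef1, a factor of resting T cells, at −3.47 ± 0.20 (adjusted p = 9.45e-12). In activated cells at day 28 of restored Foxp3, Foxp3 itself was the only one called higher, and Tcf7 (−1.46 ± 0.22, adjusted p = 0.00158) and Irf4 (−0.88 ± 0.16, adjusted p = 0.00742) were lower, beside 1.85% of all genes called. In resting cells at day 28 Foxp3 was higher and Tcf7 lower (−1.29 ± 0.17, adjusted p = 0.00115), beside 0.945% of all genes called. In activated GFP Treg cells against minusFoxp3 cells of day 0, 4 were higher and 2 lower, beside 10% of all genes called, with Gata1 at 3.45 ± 0.64 (adjusted p = 0.00176).

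Genes that have been linked to Ikaros family members as targets were a list of 16, of which 10 to 14 were abundant enough to be tested. In thymic against activated WT cells 1 was higher, the survival gene Bcl2 (1.83 ± 0.17, adjusted p = 9e-06), and 7 were lower (median −1.58), beside 23.0% of all genes called. The cytokine gene Il10 had 0 counts in the 3 thymic WT libraries and 132 to 156 CPM in the activated WT libraries, at least 1327-fold higher in activated cells against a floor of 3 counts in each library. In activated cells at day 28 of restored Foxp3, 2 were higher and 1 lower (median 0.64), beside 1.85% of all genes called. The called genes of the list were Tbx21, the gene of T-bet (2.58 ± 0.59, adjusted p = 0.0310), Il2ra (0.95 ± 0.20, adjusted p = 0.0172) and Cd4 (−1.01 ± 0.19, adjusted p = 0.00768). In resting cells at day 28, 3 were higher and 1 lower (median 0.80), beside 0.945% of all genes called, with the inhibitory receptor gene Tigit at 3.82 ± 0.80 (adjusted p = 0.0320) and Il2ra at 1.13 ± 0.21 (adjusted p = 0.0138). Activated GFP Treg cells had 4 higher and 1 lower than minusFoxp3 cells of day 0 (median −0.33), beside 10% of all genes called. The higher ones included the semaphorin receptor gene Nrp1 (2.61 ± 0.38, adjusted p = 0.000201), and Bcl2 was the lower one (−0.73 ± 0.20, adjusted p = 0.0244). Against plusFoxp3 cells of day 28, Il10 was lower in activated GFP Treg cells (−1.71 ± 0.37, adjusted p = 0.0213). Il2ra, Ctla4, Tigit, Nrp1 and Il10 are also known as Foxp3-associated genes, so this list is not particular to the Ikaros family.

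The members were related to one another across the 22 group means of the reversible-allele and GFP Treg libraries, as a description without a test, since the points share activation states and controls. Ikzf3 ran against Ikzf1 (Pearson r = −0.94 of log2 CPM) and against Ikzf4 (−0.94), and less closely against Ikzf2 (−0.70). Ikzf2 and Ikzf4 were alike (0.86), as were Ikzf1 and Ikzf4 (0.84), while Ikzf1 and Ikzf2 were less alike (0.58).

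**Figure D5:**
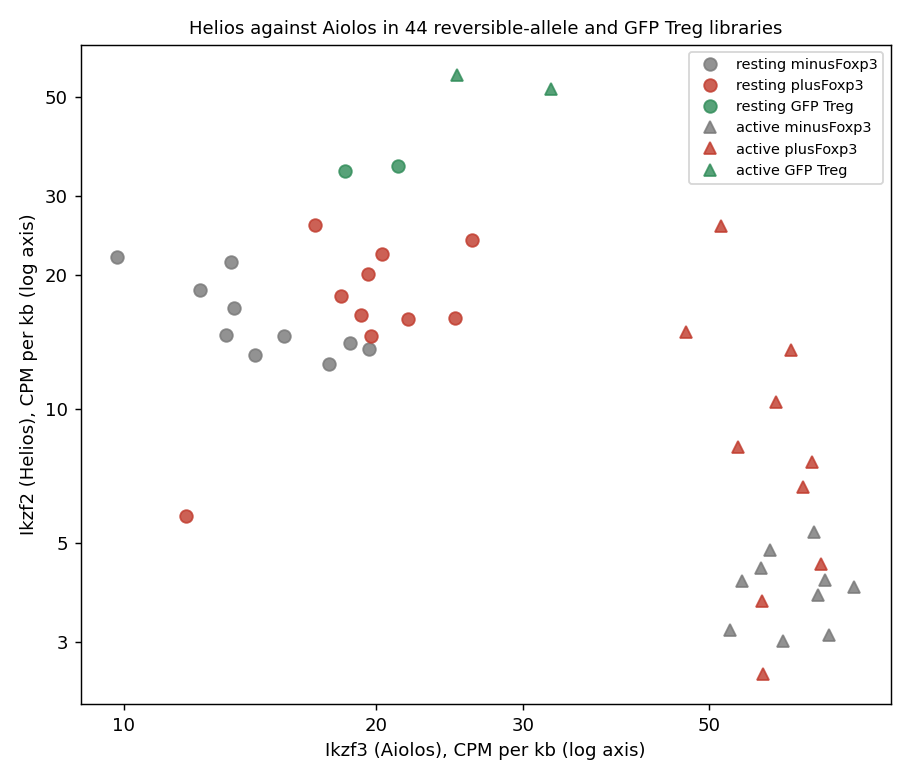
Ikzf2 against Ikzf3 in the 44 reversible-allele and GFP Treg libraries (both CPM per kilobase of exon, log axes), with each point a library. Activated minusFoxp3 cells lie at high Ikzf3 and low Ikzf2, and the 2 activated GFP Treg libraries at the highest Ikzf2.

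Among the 12399 genes that averaged 100 counts or more in those libraries, the genes whose group means followed a member most closely were as follows. Ikzf2 was followed by Tnfrsf9, which encodes the costimulatory receptor 4-1BB (r = 0.98, with group means of 14.9 to 698 CPM), by the adhesion receptor gene Cd2 (0.97) and by Rhoh (0.97). Over the 44 single libraries Tnfrsf9 still had r = 0.95 with Ikzf2. Ikzf4 was followed by Ldhb (0.99), Pakap (0.99) and Id3 (0.98), Ikzf3 by the creatine kinase gene Ckb (0.99), by Ehd1 (0.99) and by the chemokine receptor gene Ccr1 (0.99), and Ikzf1 by Cldn10 (0.97), Flt3l (0.97) and Foxk1 (0.97). For Ikzf5 the closest genes reached only 0.66 (Cisd3), 0.66 (ENSMUSG00000120356) and 0.64 (Gm20186).

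Pegasus was low throughout. Ikzf5 was 0.988 to 5.96 CPM in the 64 libraries, each group overlapped with the next in the order, and it was not called in any of the 26 comparisons. Because 81.3% of its exon bases are shared with Pstk, these counts do not measure the whole transcript.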

How the data were processed

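RNA-seq was made from sorted mouse T cells with an amplification kit for low RNA input and sequenced in pairs. The deposited files hold raw counts of read pairs per gene, which the authors made with featureCounts 2.0.3 against the GENCODE vM30 annotation without strand. The file headers show that the 20 degron libraries were counted with primary alignments, no chimeric pairs and a mapping quality of at least 30, and the other 44 without these limits. The submitters' processing notes also name Bowtie2 and DESeq2.

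The 5 members were found by symbol in all 64 tables. Counts were scaled to CPM by library total, and per kilobase of exon where genes are compared. Each comparison was fitted on all genes with a mean count of at least 10 in the fit with edgeR 4.0.16 (TMM, robust quasi-likelihood F test, R 4.3.3), Benjamini-Hochberg adjusted over all genes tested and called under 0.05. The thymic, activated and infant degron libraries were fitted apart (6, 6 and 8 libraries), the thymic against activated comparison over the 12 adult libraries, the resting and activated reversible-allele libraries with the GFP Treg cells of that state over 22 each, and state comparisons over all 44. Adult degron groups follow the library name in the header of each table. DESeq2 1.42.0, other scalings, no filter, only the compared libraries, the recorded attachment of the tables, a replicate block and leaving out each library were alternatives. The fits were also run on simulated counts with the same dispersion for every gene, which does not measure their error in these libraries. No pair of libraries was identical. Counting error is small at these totals, and the spread between 2 to 4 libraries sets the precision. Besides the members and Foxp3, genes were named as the called genes with the largest change, up to 2 in each direction, of each list and comparison, as the 3 genes most like each member in log2 CPM (prior count 2), or for sharing exon bases with a member. The members and lists were chosen with earlier results of these data known. Zinc fingers were read from the GRCm39 genome and its annotation. Some marker genes and sequences are not reported here.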

Additional observations from a re-analysis of the deposited data

Results flagged for a closer look

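Ikzf1 in titled WT replicate 4 of the infants, at 436 CPM, stood apart from the other 3 titled WT libraries (346 to 360.4 CPM), with a gap to the nearest that was 0.84 of the range of the group, above Dixon's critical value for 4 libraries. This test was made on 10 series of infant values, and chance flags about 1 group in 20. The same library had the highest Ikzf3 (225 CPM), the lowest Ikzf4 (149 CPM) and the lowest Ikzf2 (232 CPM) of the titled WT libraries, and a summed activation marker level of 520 CPM against 183 to 237 CPM in the other 3. The cause was not tested.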

How the results depend on the processing

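Over the 26 comparisons of the 5 members, no call was lost or gained with RLE size factors or library totals. The replicate block, with the replicate number as a term, also changed no call among 130 values, and it moved the number of all genes called from 3 to 7 in the infants, from 10 to 16 and from 55 to 87 in resting cells at day 3 and day 14, from 1 to 2 in activated cells at day 0 and from 17 to 28 in the state difference at day 28. In activated against resting cells it moved that number from 2795 to 3236 in minusFoxp3 cells of day 0 and from 648 to 944 in GFP Treg cells. Deviations of same-numbered libraries from their group means correlated at −0.12 to 0.22, with the highest value in that minusFoxp3 comparison. With so few libraries in a group, these values cannot show whether same-numbered libraries were paired. The cause of the changes that follow was not tested, except that a fit of only the compared libraries holds fewer libraries.

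DESeq2 called 1 member in the infants instead of 0. Without a count filter 1 member instead of 0 was called in resting cells at day 0 and day 28, in resting GFP Treg against minusFoxp3 cells, in activated cells at day 3 and day 7 and in the activated day 28 against day 3 difference, and 2 instead of 0 in the state difference of the Foxp3 effect. Both of these settings also called Ikzf4 in activated GFP Treg against plusFoxp3 cells of day 28. In only the compared libraries 1 member instead of 2 was called in activated cells at day 28, 0 instead of 2 in activated GFP Treg against plusFoxp3 cells of day 28, and 1 instead of 0 in GFP Treg cells between states (Ikzf2, adjusted p = 0.0432). Leaving out a library gave 0 to 2 members in the infants, 0 to 1 in resting cells at day 0, 0 in activated cells at day 14, 1 to 2 at day 28 and 0 to 2 in activated GFP Treg against plusFoxp3 cells of day 28, and left the other counts as they were. A library left alone in its group was assumed to vary like the other groups.

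With the recorded attachment of the adult degron tables each TIR1 difference turned, to −0.0664 (Ikzf1), 0.0951 (Ikzf2), 0.15 (Ikzf3) and 0.0218 (Ikzf4) in the thymus and 0.15, −0.36, 0.0890 and 0.0982 in activated cells. Leaving out a library turned the sign of uncalled differences, with ranges of −0.20 to 0.0013 for Ikzf2 and −0.19 to 0.0617 for Ikzf4 in the thymus, −0.27 to 0.0536 for Ikzf3 and −0.28 to 0.12 for Ikzf4 in activated cells, and −0.0055 to 0.11 for Ikzf1 in the infants. Over all genes, DESeq2 called 793 against 385 in activated cells at day 28, 518 against 152 at day 14 and 1108 against 3 in the infants, and without a filter the numbers were 1174, 847 and 149. With library totals 56.2% of the genes called in resting cells at day 7 were higher, against 41.7%. Of the 15 genes named for likeness, 5 stayed among the closest 3 over 44 single libraries and 4 with rank correlation. With 2 libraries in each reversible-allele group, Ikzf2 differences of 1.76-fold to 1.87-fold were not called.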
